A study of Mus musculus with 30 samples.

Results

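Lateral motoneurons (LMN) and medial motoneurons (MMN), the somatic motoneuron pools of the adult mouse spinal cord, were compared within the same animals. The samples were chosen by their labels alone, and they took up 20 of the 30 arrays and 10 of the 15 samples of the study, with 5 LMN and 5 MMN samples. Every animal in both pools was adult and sham-operated, so the controls of an operation are the only state described here. The sources used here do not give the kind of operation, the strain, the age, the sex or the cord level. Each sample was a pool of 400 laser captures from 1 animal, whose RNA was divided between 2 targets, amplified in a double protocol and hybridised to 2 Affymetrix arrays. The remaining 5 samples came from the intermediolateral column (IML), which holds autonomic preganglionic neurons, and enter below as levels and in 1 alternative model.

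Somatic motoneurons lie in longitudinal columns of the ventral horn. Medial column cells run along the whole cord and innervate the axial muscles of the trunk, and lateral column cells lie at limb levels and innervate limb muscles. The columns part in the embryo through LIM homeodomain factors, Hox genes, the transcription factor Foxp1 and retinoic acid signalling. A captured profile also carries RNA of what surrounds the cell body, such as synaptic terminals, glia, capillaries and, near the cord surface, the meninges.

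Values are log2 intensities, averaged over the 2 arrays of a sample, and a difference is always LMN less MMN, so a negative one means a higher level in MMN. Array medians ran from 131.7 to 143.0 on the linear scale, and the paired arrays of a sample correlated at 0.9854 to 0.9984 across probe sets. The LMN sample of animal 2 stood apart: it held the lowest LMN values of Slc18a3 (7.12) and Prph (8.19), and its summed meningeal and fibroblast signal was the highest of the LMN samples (26308, against 11084 to 15755 in the others). Both pools carried motoneuron transcripts. The heavy neurofilament gene Nefh had a mean of 12.58 in LMN and 12.20 in MMN, above 99.6% of probe sets, and Prph, the peripheral neuron filament peripherin, had 10.33 and 10.37. The embryonic markers of the columns, given further on, held no call in either direction.

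Of 12422 probe sets, 67 were called, which means a Benjamini-Hochberg adjusted p under 0.05 in a limma model with the animal as a block. This is 0.539% of those tested. Levels were lower in LMN for 51 (0.411%) and higher in LMN for 16 (0.129%). Taking each of 8251 genes by its brightest probe set, 0.606% were called, 0.473% lower and 0.133% higher in LMN. Over these genes 44% of differences were below 0. At the share called, the lists below would hold few calls or none. A lack of calls thus says little about their members. All 67 had the same sign in 5 of 5 animals. Only 8 differed at least 2-fold, and all 8 were higher in MMN. The 67 comprise 58 probe sets with 1 gene symbol, which name 42 genes lower and 15 genes higher in LMN. Pools are bulk samples, in which fewer cells of a type and less RNA per cell cannot be told apart. The smallest adjusted p was 0.0193 and 1811 probe sets had an unadjusted p under 0.05, so most calls lie close to the threshold. Without the animal as a block limma called 0, with 453 at an unadjusted p under 0.05. Calls numbered 1 without animal 1, 8 without animal 2, 10 without animal 3, 56 without animal 4 and 1 without animal 5. All 67 kept their sign in each of these fits. This was fixed in advance, because the sign was the same in 5 of 5 animals.

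**Figure D1:**
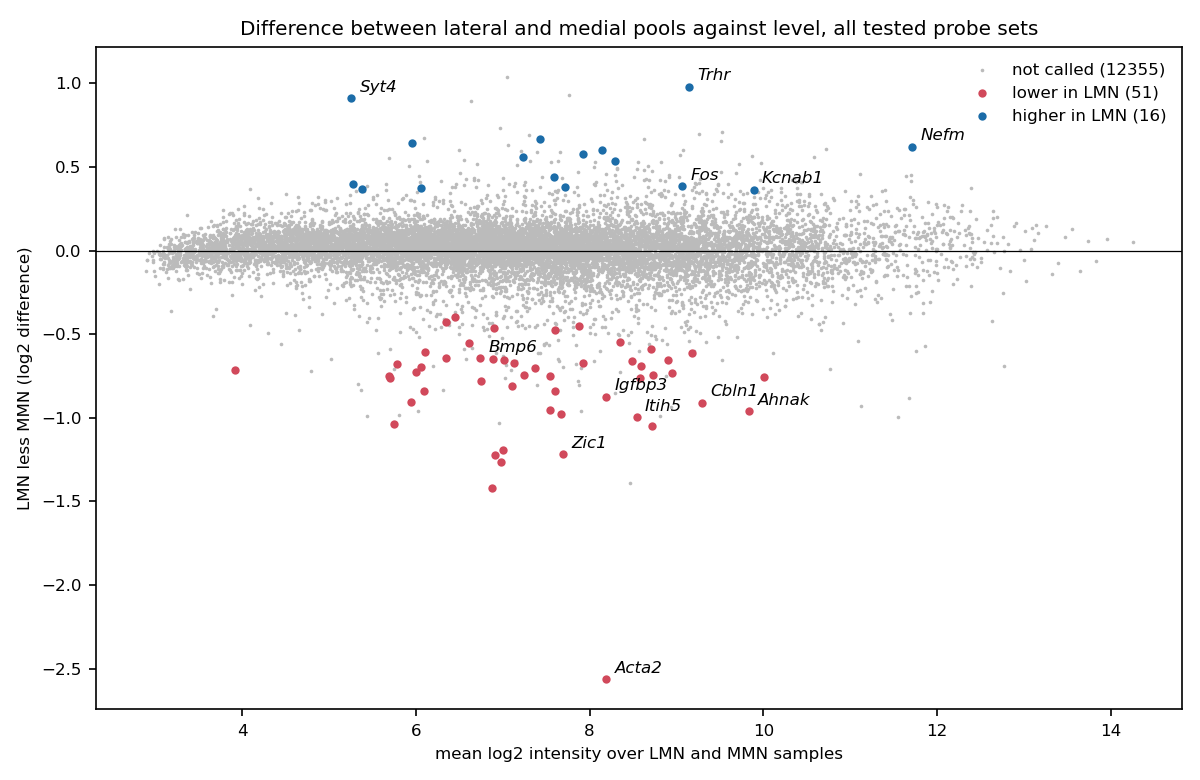
Difference in log2 intensity, LMN less MMN, on the vertical axis against the mean log2 intensity over the 10 samples on the horizontal axis, with 1 point per probe set, red for the 51 called lower in LMN, blue for the 16 called higher and grey for the rest. Acta2 lies alone at -2.56, and the largest called difference above 0 is Trhr at 0.98.

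Animals differed widely in level. Of the 67 called probe sets, 4 had pools that did not overlap, against 69 of all probe sets (0.555%, of which 0.306% lower and 0.25% higher in LMN), so the other calls rest on the shift within animals. The 4 were Gas1, lower in LMN, and Tbx2, Gast and Syt4, higher in LMN; Gas1, Tbx2 and Gast were picked out after their values were seen. For Tbx2 and Gast, the other probe sets of the same gene differed by -0.09 to 0.10 and were not called.

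The upstream sequences of 4 of the called genes are shown here. They are Acta2, which had the largest difference, and Itih5, Igfbp3 and Bmp6, which encode secreted proteins and were all higher in MMN. Each is the 250 bases before the gene's start in RefSeq on GRCm38.p6, printed 5′ to 3′ on the gene's strand. Capitals mark matches to 4 motifs searched on both strands: GGAATG, the core of the MCAT element, TATAAA, the TATA box, GGGCGG, the GC box, and the CArG box of serum response factor. A match on the other strand is printed as its complement. None of these motifs overlaps another in the windows shown.
Acta2, chr19:34255374-34255623, minus strand: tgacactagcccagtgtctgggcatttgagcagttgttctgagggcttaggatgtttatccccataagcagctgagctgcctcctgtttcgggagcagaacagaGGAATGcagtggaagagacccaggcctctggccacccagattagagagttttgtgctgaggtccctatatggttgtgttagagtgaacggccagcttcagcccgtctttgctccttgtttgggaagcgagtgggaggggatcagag
Itih5, chr2:10153293-10153542, plus strand: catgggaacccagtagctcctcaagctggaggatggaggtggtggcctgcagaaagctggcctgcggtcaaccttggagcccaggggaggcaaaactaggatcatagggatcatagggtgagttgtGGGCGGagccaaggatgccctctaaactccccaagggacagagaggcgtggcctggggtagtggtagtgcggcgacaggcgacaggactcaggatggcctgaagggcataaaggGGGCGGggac
Igfbp3, chr11:7213924-7214173, minus strand: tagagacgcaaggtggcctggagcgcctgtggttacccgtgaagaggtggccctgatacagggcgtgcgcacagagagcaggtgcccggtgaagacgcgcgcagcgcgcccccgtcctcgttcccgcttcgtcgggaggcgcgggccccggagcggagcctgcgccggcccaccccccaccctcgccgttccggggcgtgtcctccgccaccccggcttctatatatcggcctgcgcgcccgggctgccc
Bmp6, chr13:38345466-38345715, plus strand: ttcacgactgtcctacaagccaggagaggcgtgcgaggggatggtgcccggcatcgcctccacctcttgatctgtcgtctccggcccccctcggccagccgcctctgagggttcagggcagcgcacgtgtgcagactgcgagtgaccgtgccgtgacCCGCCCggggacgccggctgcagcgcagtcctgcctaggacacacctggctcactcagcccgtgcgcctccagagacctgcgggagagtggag
Acta2 held 1 GGAATG, a motif present in 12.6% of 32851 RefSeq promoter windows of this length. Itih5 held 2 GGGCGG matches and Bmp6 held 1 on the other strand, a motif present in 32.7% of windows. Igfbp3 held no match. TATAAA, in 12.4% of windows, and the CArG box, in 1.47%, had no exact match in these 4 windows. The search took exact matches alone, so an element that departs from the pattern by a letter, as the known serum response factor sites of Acta2 do, is not marked. No motif was common to the 4 windows.

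The gene with the largest difference between the pools belongs to the vessel wall. Acta2 encodes smooth muscle actin, which in the cord marks arteriolar muscle and pericytes. In LMN its levels in animals 1 to 5 were 6.14, 9.13, 6.30, 6.60 and 6.39, and in MMN they were 9.53, 10.83, 8.53, 8.75 and 9.73. Animal 2 was high in both pools, and its LMN value overlapped the MMN range while the other 4 LMN values lay below it. The difference was -2.56 ± 0.25 (SE, n = 5 pairs), or 5.90-fold, with an adjusted p of 0.0213 in limma. It was also called without animal 2, but not without animal 1, 3 or 5. Tagln, the smooth muscle protein transgelin, differed by -0.65 ± 0.08 and Vwf, the von Willebrand factor of endothelium, by -0.98 ± 0.12. A dimmer probe set of Vwf (6.91 in LMN, 6.93 in MMN) differed by -0.03 and was not called.

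Of 26 measured markers of endothelium and mural cells, those 3 were called lower in LMN, none higher and 23 were not called, against 0.473% of all genes called lower. Below 0 lay 21 of the 26, against 44% of all genes. Eng (-0.55, adjusted p = 0.057), the smooth muscle myosin Myh11 (-0.96, adjusted p = 0.0863) and the tight junction gene Cldn5 (-0.51, adjusted p = 0.122) missed the threshold. The median of the list was -0.15, against 0.01 over all genes, and -0.10 without animal 2. Pecam1 (-0.08), Kdr (0.06) and Flt1 (0.02), defining genes of endothelium, were not called. Summed over the list, the linear signal ran from 5410 to 7421 in LMN and from 5961 to 10416 in MMN.

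Some connective tissue genes were higher in MMN as well. Of 24 measured meningeal and fibroblast markers, 5 were called lower in LMN, none higher and 19 were not called, against 0.473% of all genes called lower. Of the 24 differences 22 were negative, against 44% of all genes. The median difference was -0.54, against 0.01 over all genes, and it was negative in each of 5 animals. Mgp, the matrix Gla protein, differed by -1.22 ± 0.12, and Serping1, the C1 inhibitor, by -1.05 ± 0.14. Fn1, fibronectin, differed by -0.66 ± 0.09. Col3a1, a fibrillar collagen, differed by -0.84 ± 0.12 in its brightest probe set, while its dimmer probe sets, not called, gave -0.99 (adjusted p = 0.053) and -0.09 (adjusted p = 0.782). The proteoglycan gene Bgn (-0.73 ± 0.10), also called, falls outside the naming rule and was picked out after its value was seen. Without animal 2 none of these 5 was called, and the list's median was -0.45.

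The uncalled members of that list showed sizes of the same order. Igf2, a growth factor abundant in the leptomeninges, was among the brightest transcripts and had values of 10.78, 12.20, 10.34, 10.44 and 11.51 in LMN against 12.13, 12.89, 12.06, 10.96 and 12.22 in MMN. It was higher in MMN in 5 of 5 animals, but the difference of -0.998 ± 0.17 missed the threshold (adjusted p = 0.0625), and a dim probe set of Igf2 gave -0.04 (adjusted p = 0.771). Dcn (-0.66), Pdgfra (-0.52) and Ptgds (-0.69) had adjusted p of 0.071, 0.0743 and 0.084. Col1a2 stood at 0.07 by its brightest probe set and at -0.94 (adjusted p = 0.0674) by another. The summed signal of the list ran from 11084 to 26308 in LMN, from 13585 to 42453 in MMN and from 26064 to 37282 in IML, and animal 2 had the highest value of LMN and of MMN.

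**Figure D2:**
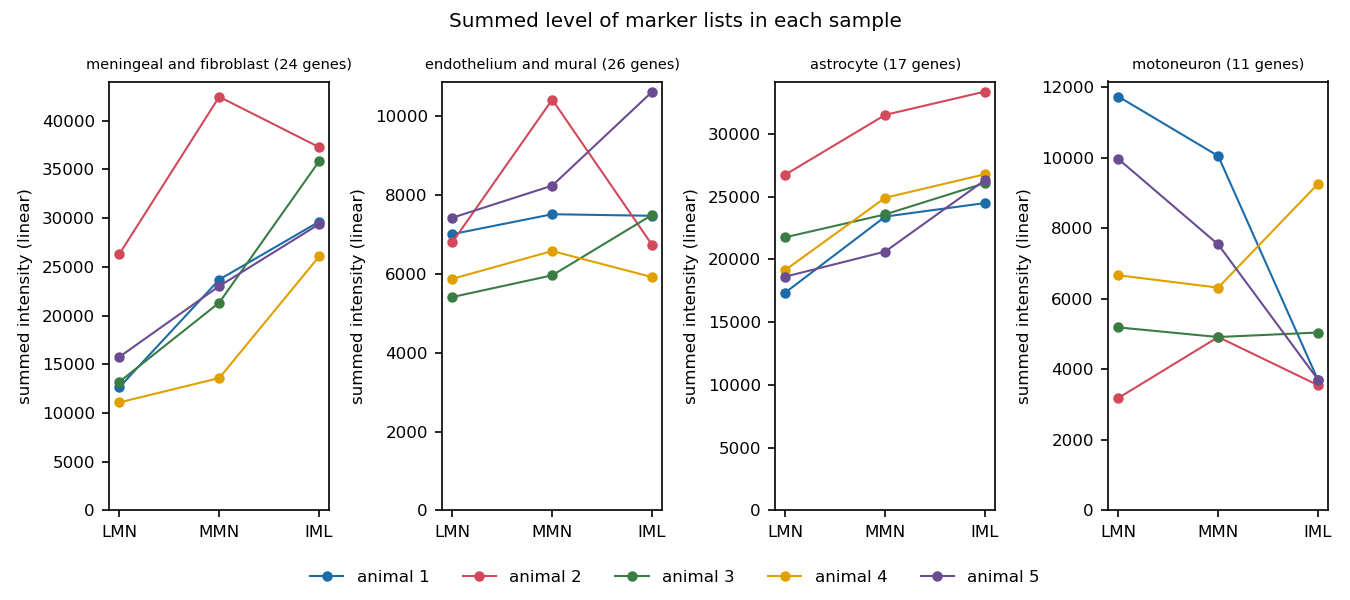
Linear intensity summed over the measured genes of 4 marker lists on the vertical axis for each sample, with the 3 pools on the horizontal axis and 1 line per animal. The meningeal and fibroblast sum was higher in MMN than in LMN in every animal, while the motoneuron sum of animal 2 was lowest in LMN at 3188.

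The next genes were named by the size of their difference and belong to no list. Anxa1, a phospholipid-binding annexin, had LMN values of 5.67, 7.50, 6.27, 5.41 and 5.99 and MMN values of 7.07, 8.80, 8.26, 6.63 and 7.17. The pools overlapped because animals differed, yet MMN was higher within each animal, by a difference of -1.42 ± 0.12 (adjusted p = 0.0193). A further Anxa1 probe set was called too, at -1.26 ± 0.14. S100a6, a calcium-binding protein, differed by -0.95 ± 0.09 and Ahnak, a giant scaffold protein of the cell cortex, by -0.96 ± 0.11. Leaving out each animal in turn kept the call of Anxa1 and of S100a6 in 3 of 5 fits.

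Itih5 is a heavy chain of the inter-alpha-trypsin inhibitors, which stabilise hyaluronan in the extracellular matrix. Its LMN levels in animals 1 to 5 were 7.61, 9.05, 7.80, 7.46 and 8.30, against 8.90, 10.19, 8.57, 8.15 and 9.39 in MMN. Animal 2 was the highest in each pool and animal 4 the lowest, so the pools overlapped while every animal was higher in MMN. The difference was -0.997 ± 0.09 (adjusted p = 0.0204). A dim probe set of the same gene (4.29 in LMN) differed by -0.09 and was not called. Of 19 measured genes of the inhibitor family and the hyaluronan matrix, Itih5 alone was called and 18 were not, with a median of 0.05. The relatives Itih2 (-0.34, adjusted p = 0.159) and Itih3 (-0.33, adjusted p = 0.146) missed the threshold, and Itih1 (0.05) and Itih4 (-0.02) lay near 0. The hyaluronan synthases Has1, Has2 and Has3 differed by 0.05 to 0.09.

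Igfbp3 encodes a carrier that binds insulin-like growth factors outside the cell. It stood at 7.27, 8.72, 7.46, 7.48 and 7.85 in LMN and at 8.32, 10.02, 8.11, 8.13 and 8.56 in MMN. The MMN sample of animal 2 lay far above the other MMN samples. The difference was -0.87 ± 0.10 (adjusted p = 0.0243), or 1.83-fold, and it was called without animal 4 but in no other fit that left out an animal. The other Igfbp3 probe set, at a mean of 6.64 in both pools, differed by -0.00 ± 0.06 (adjusted p = 0.984), so the probe sets of this gene disagree. Among 16 measured growth factors, binding proteins, receptors and adaptors of this pathway, Igfbp3 was the 1 called and 15 were not, with a median of -0.01. Igfbp6 (-0.56, adjusted p = 0.124), Igfbp7 (-0.22, adjusted p = 0.155) and Igfbp4 (-0.14, adjusted p = 0.35) had negative differences. The ligand Igf1 (0.10), the receptors Igf1r (0.03), Insr (0.03) and Igf2r (0.02) and the adaptors Irs1 (-0.06) and Irs2 (0.08) lay near 0.

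Bmp6 is a ligand of the bone morphogenetic protein family, which signals through paired serine/threonine kinase receptors to Smad factors and Id genes. Levels were 6.36, 7.22, 5.94, 6.04 and 6.55 in LMN and 7.04, 8.07, 6.67, 6.32 and 7.22 in MMN. Animal 2 was again the highest of each pool. The difference was -0.64 ± 0.08 (adjusted p = 0.0266), or 1.56-fold. A dimmer probe set of Bmp6 was also lower in LMN within each animal, but its -0.38 ± 0.07 missed the threshold (adjusted p = 0.0664). Of 55 ligands, receptors and targets in the BMP and TGF-beta list, Bmp6 was called and 54 were not, with a median of 0.01. Among receptors, Bmpr2 differed by 0.13 (adjusted p = 0.305), Acvr2a by -0.33 (adjusted p = 0.228) and Tgfbr2 by -0.11 (adjusted p = 0.403). The target genes Id1 (-0.27, adjusted p = 0.388) and Id3 (-0.36, adjusted p = 0.184) were not called, and Ltbp1, which anchors latent TGF-beta in the matrix, differed by -0.30 (adjusted p = 0.174).

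Itih5, Igfbp3 and Bmp6 had their highest value of each pool in animal 2, the animal with the highest meningeal and fibroblast sum in each pool. Animal 2 also had the highest astrocyte sum (26751 in LMN, 31511 in MMN) and the highest oligodendrocyte sum (25370 in LMN, 23978 in MMN). The part of connective tissue, vessel and glial RNA in these 3 differences was not tested. In IML, where the meningeal and fibroblast sum was 26064 to 37282, mean levels were 9.57 for Itih5, 8.59 for Igfbp3 and 7.27 for Bmp6. All 7 probe sets called when the IML samples were added to the model were among the 67, and Bmp6, Igfbp3 and Itih5 were in that 7.

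**Figure D3:**
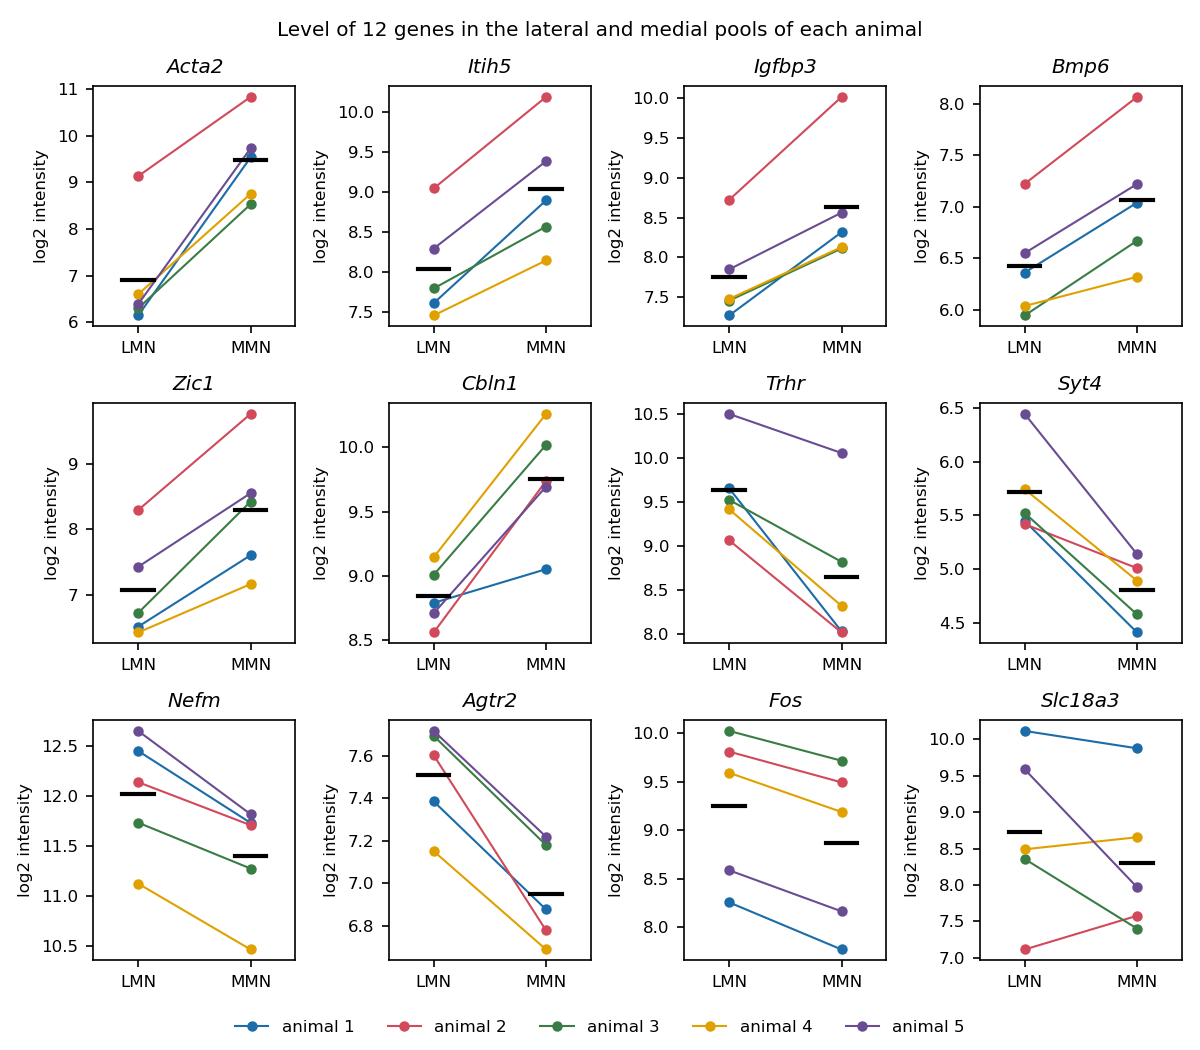
Log2 intensity of 12 genes on the vertical axes in the LMN and MMN samples of each animal, joined by a line per animal, with black bars at the mean of 5 animals. The lines of Acta2, Itih5, Igfbp3, Bmp6, Zic1 and Cbln1 rise to MMN in 5 of 5 animals and those of Trhr, Syt4, Nefm, Agtr2 and Fos fall, whereas the lines of Slc18a3 cross.

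Genes of neurons also differed. Cbln1 encodes cerebellin 1, a secreted organiser that joins presynaptic neurexins to postsynaptic delta glutamate receptors. Its LMN values were 8.79, 8.56, 9.01, 9.15 and 8.71, a narrow range, and its MMN values 9.05, 9.74, 10.02, 10.26 and 9.69. Only animal 1 brought the pools into overlap, since its MMN value lay below the highest LMN value. The difference was -0.91 ± 0.13 (adjusted p = 0.0344). The mean in IML was 8.62 ± 0.14 (SD over animals), below that of MMN. Animal 2 was not the highest in either pool for Cbln1. The part of surrounding tissue in this difference was not tested. Without animal 1, Cbln1 was the 1 call made over all probe sets. No other of the 37 measured neuropeptide, granin and cerebellin genes was called. The enkephalin precursor Penk (-0.44 ± 0.13, adjusted p = 0.206) and the somatostatin gene Sst (-0.37 ± 0.13, adjusted p = 0.271) had the next smallest p.

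Zic1, a zinc finger transcription factor of dorsal cord neurons and of the meninges, had LMN values of 6.52, 8.29, 6.73, 6.43 and 7.43 and MMN values of 7.61, 9.75, 8.42, 7.17 and 8.55. Animal 2 was the highest of each pool, as for the meningeal, astrocyte and oligodendrocyte sums, whose part in this difference was not tested. The difference was -1.22 ± 0.13 (adjusted p = 0.0214), or 2.33-fold, and IML had a mean of 8.99. Zic2 differed by 0.09 (adjusted p = 0.47). The list of 13 measured visceral motoneuron genes includes Zic1, though Zic1 is not particular to those cells, and it alone was called. Nos1 (-0.04), Th (0.02), Phox2a (-0.03) and Tac1 (0.00) lay near 0.

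Marcks, an actin-binding substrate of protein kinase C in growth cones and dendrites, was lower in LMN by a difference of -0.55 ± 0.09, just past the threshold (adjusted p = 0.0497). Grik1, a kainate receptor subunit of low level here (5.32 in LMN, 6.08 in MMN), differed by -0.76 ± 0.11 (adjusted p = 0.0435). It was the 1 called of 50 transmitter receptors and scaffolds by the brightest probe set of each gene. Of the 50 differences 38 were above 0 and 12 below, against 44% of all genes below 0. The glycine receptor subunit Glrb (0.45, adjusted p = 0.084), its scaffold Gphn (0.24, adjusted p = 0.132), Gria3 (0.29, adjusted p = 0.14) and Gabra2 (0.30, adjusted p = 0.292) were not called. A dim probe set of the AMPA receptor subunit Gria2 (6.25 in LMN, 5.87 in MMN) was called higher in LMN, at 0.38 ± 0.06; it falls outside the naming rule, and the brightest probe set of Gria2 differed by 0.28 with an adjusted p of 0.519.

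Genes higher in LMN were fewer, and their differences were smaller. Trhr encodes the receptor of thyrotropin-releasing hormone, a peptide that descending raphe fibres release on motoneurons and that excites them. LMN values were 9.65, 9.07, 9.52, 9.42 and 10.50, and MMN values were 8.03, 8.02, 8.82, 8.32 and 10.05. Animal 5 was the highest of each pool, and its MMN value alone overlapped the LMN range. The difference of 0.98 ± 0.15, or 1.97-fold, was the largest of the called differences above 0, with an adjusted p of 0.0488. Leaving out any 1 of the 5 animals ended the call of Trhr, and its difference then ran from 0.82 to 1.11.

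Syt4 encodes synaptotagmin 4, a vesicle protein of dense-core and postsynaptic vesicles. Its level was low, at 5.45, 5.42, 5.52, 5.74 and 6.44 in LMN and 4.41, 5.01, 4.58, 4.89 and 5.14 in MMN, with 18.3% of probe sets below its mean. Every LMN value lay above every MMN value. The difference was 0.91 ± 0.12 (adjusted p = 0.0266), or 1.88-fold. It shrank to 0.59 with a floor of 32 on the linear values, a setting under which no probe set was called. Of 47 genes of synaptic vesicles and release, Syt4 was the 1 called, against 0.606% of all genes, with a list median of 0.01. Vamp1, a vesicle SNARE of fast motoneuron terminals, differed by 0.53 ± 0.09 (adjusted p = 0.063) and the clathrin adaptor Snap91 by 0.41 ± 0.08 (adjusted p = 0.0785). A dimmer Vamp1 probe set gave 0.015 (adjusted p = 0.926). Syt17 (-0.41, adjusted p = 0.133) and Vamp8 (-0.38, adjusted p = 0.174) leaned to MMN without passing.

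The filaments that fill large axons were at the top of the range in both pools. Nefm, the medium neurofilament subunit, had values of 12.45, 12.14, 11.73, 11.12 and 12.65 in LMN and 11.73, 11.71, 11.27, 10.46 and 11.82 in MMN. Animal 4 was the lowest of each pool, the pools overlapped, and LMN was higher in every animal. The difference was 0.62 ± 0.07 (adjusted p = 0.0241), or 1.54-fold. Nefh leaned the same way in each animal, with 12.94, 12.10, 12.45, 12.47 and 12.94 in LMN against 12.25, 11.83, 12.22, 12.20 and 12.52 in MMN, but its 0.37 ± 0.08 missed the threshold (adjusted p = 0.0881). Of 53 genes of neurofilaments, motors and the axonal cytoskeleton, Nefm was called higher, Marcks lower and 51 were not called. Above 0 lay 36 and below 0 lay 17, with a median of 0.06. Over all genes 44% lay below 0 and the median was 0.01. The kinesin heavy chain Kif5b (0.50, adjusted p = 0.154) and the stathmin Stmn1 (-0.37, adjusted p = 0.0745) leaned to opposite pools. A dimmer Stmn1 probe set gave 0.01 (adjusted p = 0.946).

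Agtr2, the type 2 angiotensin receptor, stood at 7.39, 7.60, 7.69, 7.15 and 7.72 in LMN and at 6.88, 6.78, 7.18, 6.69 and 7.22 in MMN. The lowest LMN value, in animal 4, was below the highest MMN value, in animal 5, and without that LMN sample the pools would part. Its difference was 0.56 ± 0.07 (adjusted p = 0.0241), while a probe set near the lowest levels on the array (3.50 in LMN) gave -0.06. Clvs1, a lipid-binding protein of neuronal endosomes, differed by 0.66 ± 0.09 (adjusted p = 0.0344), and its mean of 7.76 in LMN compared with 7.10 in MMN and 6.60 in IML. Parg, which removes poly(ADP-ribose) chains, differed by 0.60 ± 0.08, and Ubr3, a ubiquitin ligase, by 0.58 ± 0.07. Strap, a component of the SMN complex that assembles splicing particles, differed by 0.53 ± 0.07, and Uck2, a uridine-cytidine kinase, by 0.44 ± 0.05. Of these 6 genes, Agtr2 and Uck2 were each called in 1 of the 5 fits without an animal, and Clvs1, Parg, Ubr3 and Strap in none.

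Fos, the immediate early transcription factor, varied widely between animals and little between pools. LMN values were 8.26, 9.81, 10.02, 9.59 and 8.59, and MMN values 7.77, 9.49, 9.72, 9.19 and 8.17. Animals 1 and 5 were low in both pools, and in each animal LMN was slightly higher. The difference was 0.39 ± 0.05 (adjusted p = 0.0273), or 1.31-fold. A dimmer Fos probe set had pools that did not overlap, at 0.22 ± 0.07, and was not called (adjusted p = 0.226). Of 34 immediate early and injury genes, Fos was the 1 called, and the median was -0.03. Its relative Fosb differed by 0.13 (adjusted p = 0.323), Egr1 by -0.15 (adjusted p = 0.357) and the growth cone gene Gap43 by -0.60 ± 0.28 (adjusted p = 0.387).

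Kcnab1, a beta subunit of Shaker potassium channels, had LMN values of 9.61, 10.00, 10.23, 9.94 and 10.57 and MMN values of 9.17, 9.68, 9.85, 9.74 and 10.09. LMN was higher in each animal by a small amount, and the pools overlapped. The difference was 0.36 ± 0.06 (adjusted p = 0.0489), and the call ended whichever animal was left out. A dimmer Kcnab1 probe set differed by 0.16 and was not called (adjusted p = 0.356). The calcium-activated channel Kcnma1 (0.27, adjusted p = 0.0924) was not called, and Kcna1, a pore subunit of the Shaker family, differed by 0.51 ± 0.13 (adjusted p = 0.162). Kcna5, also of that family, differed the other way and was not called (-0.28 ± 0.07, adjusted p = 0.157). Its level was low (5.09 in LMN, 5.38 in MMN), and a dimmer probe set gave 0.06. Of 40 potassium channel genes, Kcnab1 was the 1 called, and 14 of the 40 had a mean at or above the median level of probe sets. Above 0 lay 34 and below 0 lay 6, against 44% of all genes below 0. Their median was 0.07, against 0.01 over all genes. The 23 sodium, HCN and calcium channel genes had no call, against 0.606% of all genes, with 19 above 0, 4 below and a median of 0.09. Scn1a (0.24 ± 0.07, adjusted p = 0.19), the neuronal sodium channel with the smallest p in that list, was among the brightest transcripts, with means of 12.40 and 12.16.

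**Figure D4:**
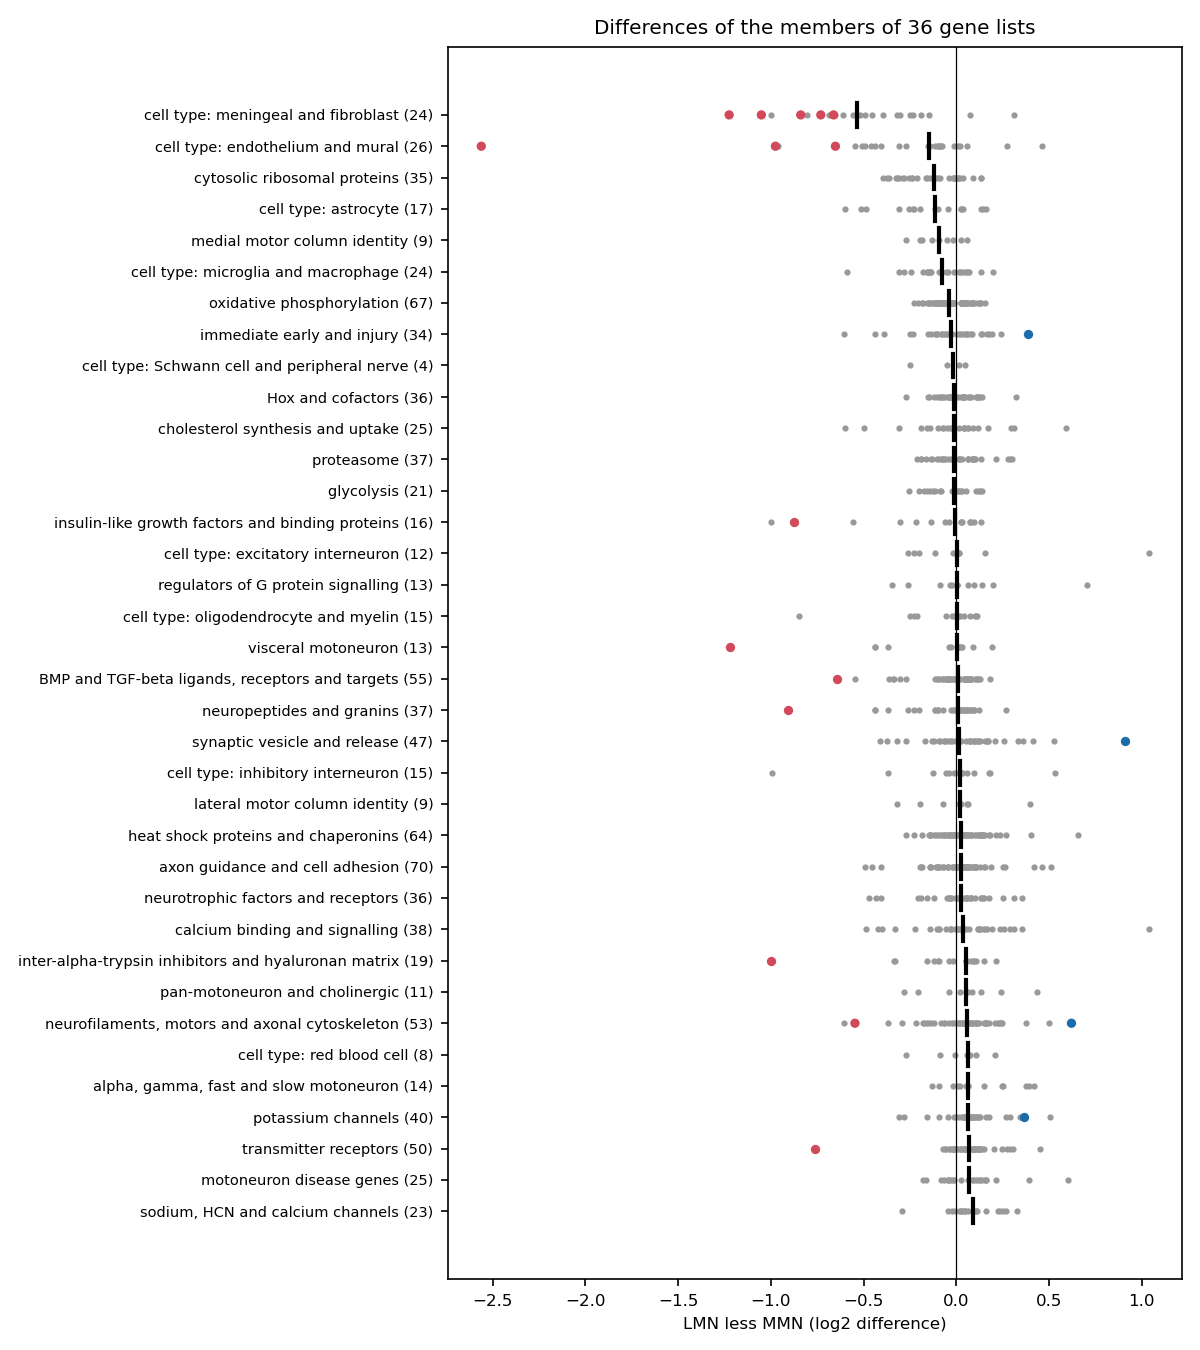
Difference in log2 intensity, LMN less MMN, on the horizontal axis for each measured gene of 36 lists, named on the vertical axis with the number of genes, where grey points are not called, red points are called lower and blue points called higher in LMN, and black bars are medians. The meningeal and fibroblast list has the lowest median, at -0.54, and the other medians lie between -0.15 and 0.09.

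Factors that part the columns in the embryo held no call. Foxp1, which the lateral column needs for its identity, stood at 6.67, 6.80, 6.79, 6.70 and 6.79 in LMN and at 6.91, 7.04, 7.06, 6.79 and 6.93 in MMN. Its difference of -0.20 ± 0.05 (adjusted p = 0.155) was opposite in sign to the label, and another Foxp1 probe set gave -0.01. Aldh1a2, the retinoic acid enzyme of lateral column neurons, which also marks meninges and is in both lists, differed by -0.32 ± 0.07 (adjusted p = 0.102). Lhx1, of the lateral division of the lateral column, differed by 0.06 ± 0.05. Lhx3 (0.06 ± 0.05) and Mecom (0.03 ± 0.07), factors of the medial column, were not called either. Of 9 measured lateral and 9 measured medial identity genes, none was called, a count that lies near the 0.606% of all genes called. Above 0 lay 6 of 9 in the lateral list, and below 0 lay 7 of 9 in the medial list. Over all genes 44% lay below 0. The medians of the lateral and medial lists were 0.02 and -0.09. In the lateral list Nr2f2 had the highest difference (0.40 ± 0.12, adjusted p = 0.195), and in the medial list Meis1 the lowest (-0.27 ± 0.11, adjusted p = 0.299). Foxp1, Aldh1a2, Lhx3 and Mecom had means below the median level of probe sets, 7.09, in both pools, and Lhx4 had no named probe set.

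Hox genes are expressed by position along the cord. None of 36 measured Hox genes and cofactors was called, against 0.606% of all genes, with 17 above 0, 19 below and a median of -0.01. Hoxc8 had the smallest p, at 0.32 ± 0.07 (adjusted p = 0.105), with LMN values of 6.92, 7.35, 7.22, 7.22 and 7.22 and MMN values of 6.52, 7.05, 6.64, 7.07 and 7.02. Hoxc6 (0.13, adjusted p = 0.348) and the lumbar genes Hoxd10 (-0.07), Hoxa10 (-0.03) and Hoxd9 (0.01) stayed within a small range.

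No cholinergic or general motoneuron gene was called. Slc18a3, the vesicular acetylcholine transporter, had LMN values of 10.11, 7.12, 8.36, 8.49 and 9.59 and MMN values of 9.87, 7.58, 7.40, 8.65 and 7.97. It was higher in LMN in animals 1, 3 and 5 and higher in MMN in animals 2 and 4. The difference was 0.44 ± 0.28 (adjusted p = 0.521). Prph differed by -0.04 ± 0.25 (adjusted p = 0.96), and by 0.28 without animal 2. The neurotrophic receptor gene Ret differed by 0.13 ± 0.06 and the acetylcholinesterase gene Ache by 0.24 ± 0.16, and Isl1, at 5.61 and 5.59, by 0.02 ± 0.06. The list had 11 measured members, with 0.606% of all genes called, and its median was 0.05, and Chat had no named probe set. The choline transporter Slc44a1 had pools that did not overlap and still missed the threshold (-0.28 ± 0.07, adjusted p = 0.155).

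Markers of motoneuron size and type were not called either. Mmp9, a metalloproteinase of fast motoneurons, had LMN values of 9.04, 8.03, 8.44, 8.49 and 8.87 and MMN values of 7.96, 8.13, 8.29, 8.29 and 8.23, and its 0.39 ± 0.16 had an adjusted p of 0.308. Animal 2 was the 1 animal in which MMN was higher. The repressor Bcl6 (0.42 ± 0.19, adjusted p = 0.386), the GDNF receptor Gfra1 (0.25 ± 0.07, adjusted p = 0.192) and Calb2 (0.15, adjusted p = 0.67) were above 0. Wnt7a, of low level (5.78 in LMN, 5.91 in MMN), was below 0 (-0.13 ± 0.05, adjusted p = 0.307). Of 14 measured genes of alpha, gamma, fast and slow motoneurons, listed together, 11 were above 0 and 3 below, against 44% of all genes below 0. Their median was 0.06, against 0.01 over all genes, and was positive in each of 5 animals. Of 25 motoneuron disease genes, none was called, against 0.606% of all genes, and the median was 0.07. Ubqln2, a ubiquitin-binding shuttle mutated in motoneuron disease, had the smallest p among them (0.60 ± 0.17, adjusted p = 0.174).

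Other neuronal lists held large differences that varied between animals. Rgs2, which shortens Gq signalling, stood at 9.25, 10.06, 10.53, 9.73 and 9.80 in LMN and at 8.24, 9.21, 9.96, 8.78 and 9.64 in MMN, and its 0.71 ± 0.12 had an adjusted p of 0.0648. Calb1, the calcium buffer calbindin, ran from 5.37 to 9.24 in LMN and from 5.65 to 7.50 in MMN, and its 1.04 ± 0.33 was not called (adjusted p = 0.229). None of 13 regulators of G protein signalling and none of 38 calcium genes was called, against 0.606% of all genes. Among 36 neurotrophic factors and receptors the shared cytokine receptor Il6st came nearest (-0.47 ± 0.08, adjusted p = 0.0575), and Bdnf differed by -0.43 ± 0.14 (adjusted p = 0.228). A dimmer Il6st probe set gave 0.02 (adjusted p = 0.929). Among 70 guidance and adhesion genes Ncam1 (-0.46 ± 0.08, adjusted p = 0.071) had pools that did not overlap, and Cntn1 (0.51 ± 0.11, adjusted p = 0.0939), Epha5 (0.46, adjusted p = 0.155) and Efnb2 (-0.49, adjusted p = 0.124) were not called. Dimmer Ncam1 probe sets gave -0.18 (adjusted p = 0.247) and 0.02 (adjusted p = 0.901). A dimmer Epha5 probe set gave 0.00 (adjusted p = 0.986).

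Markers of interneurons and glia gave no call, against 0.606% of all genes called. Gad1, the GABA-synthesising enzyme of inhibitory neurons and their terminals, had LMN values of 7.36, 9.21, 9.17, 8.12 and 7.70 and MMN values of 8.60, 9.82, 10.10, 8.57 and 9.43. MMN was higher in each animal, but the difference of -0.99 ± 0.17 missed the threshold (adjusted p = 0.0642). The factors Gata3 (0.18, adjusted p = 0.221), En1 (0.53, adjusted p = 0.228) and Tfap2b (0.18, adjusted p = 0.253), which mark inhibitory interneurons, had differences above 0. Gata3 (4.51 in LMN, 4.33 in MMN) and Tfap2b (5.13 in LMN, 4.95 in MMN) were of low level, and En1 was lower in LMN in animal 1. Gad2 differed by -0.06, the vesicular transporter Slc32a1 by 0.03 and Pax2 by -0.01, and the median of the 15 members was 0.02. The 12 excitatory interneuron markers had a median of 0.00. The 17 astrocyte markers had a median of -0.12, negative in each of 5 animals, and a summed signal of 17359 to 26751 in LMN and 20622 to 31511 in MMN, led in p by Gja1 (-0.31, adjusted p = 0.0817) and Agt (-0.48, adjusted p = 0.0858). A dimmer Gja1 probe set gave 0.08 (adjusted p = 0.774). The 15 oligodendrocyte markers had a median of 0.00, the 24 microglia and macrophage markers -0.08, the 4 Schwann cell markers -0.02 and the 8 red blood cell markers 0.06.

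Groups of housekeeping genes had no call, against 0.606% of all genes called. The 35 cytosolic ribosomal protein genes leaned to MMN, with 28 below 0, against 44% of all genes. Their median was -0.12 and was negative in each of 5 animals. Rps18 had pools that did not overlap (-0.39 ± 0.09, adjusted p = 0.103), and Rps3 (-0.37 ± 0.08) had an adjusted p of 0.0967. Medians were -0.04 for 67 oxidative phosphorylation genes, -0.01 for 21 glycolysis genes, -0.01 for 37 proteasome genes, 0.02 for 64 heat shock and chaperonin genes and -0.01 for 25 cholesterol genes. Psmc6 (0.29 ± 0.06, adjusted p = 0.104) and the cholesterol exporter Abca1 (-0.50 ± 0.11, adjusted p = 0.0973) had the smallest p of the proteasome and cholesterol lists. A dimmer Abca1 probe set gave 0.01 (adjusted p = 0.935).

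The IML samples, taken from the same animals, give a further level for the 22 genes named by size. These genes were chosen by their LMN and MMN values, so an IML mean on the MMN side of LMN could follow from that choice. The share over all probe sets was not counted. Of the 12 that were lower in LMN, 9 had an IML mean above the MMN mean; Acta2 (8.57), Igfbp3 (8.59) and Cbln1 (8.62) did not. S100a6 (9.18), Anxa1 (8.38) and Ahnak (11.27) had IML means above those of both somatic pools. Of the 10 that were higher in LMN, all 10 had an IML mean below the LMN mean and 7 below the MMN mean. No test was made of IML here.

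**Figure D5:**
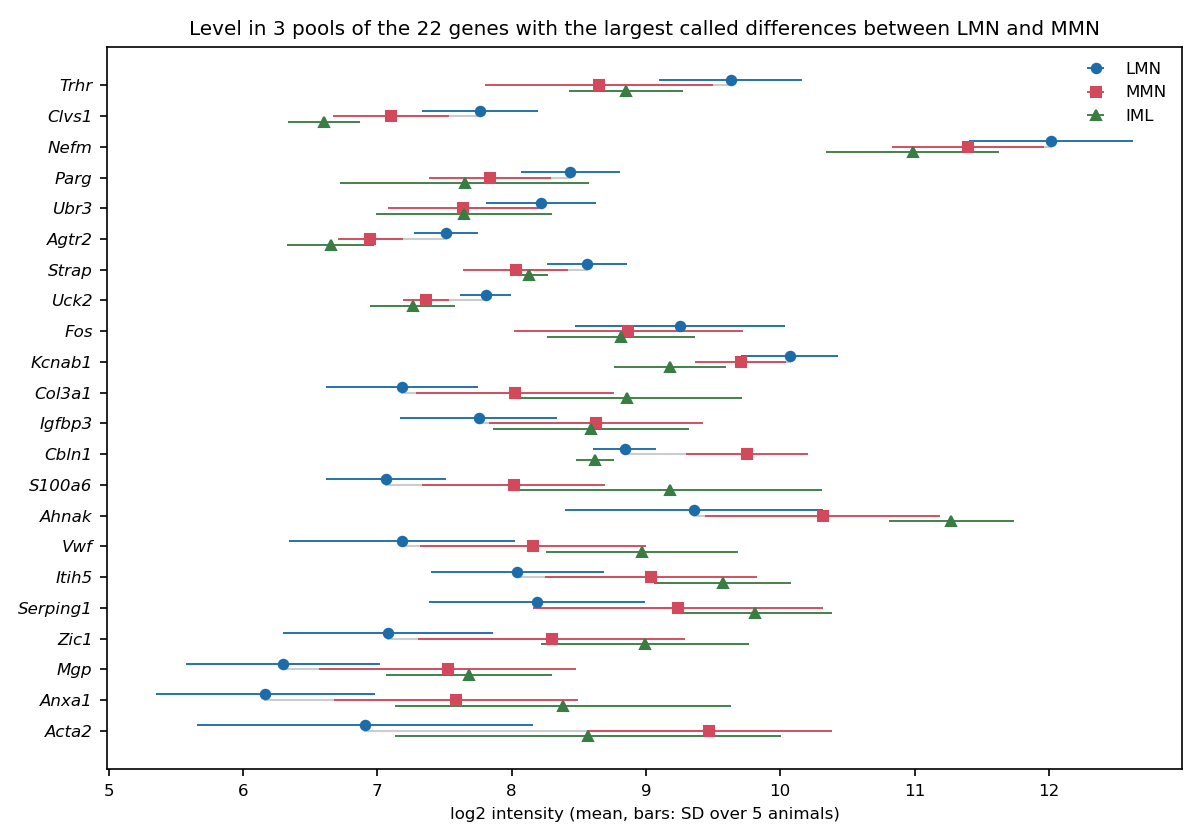
Mean log2 intensity on the horizontal axis in LMN, MMN and IML of the 22 genes named by size on the vertical axis, with bars of 1 SD over 5 animals. LMN lies to the left of MMN for the 12 lower genes, from Acta2 (6.91 against 9.47) to Col3a1 (7.18 against 8.02), and to the right for the 10 genes from Trhr to Kcnab1.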

How the data were processed

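Per the labels, RNA of 400 laser captures per pool and animal was split, amplified in a double protocol and hybridised to 2 Affymetrix arrays, and the deposited values are linear intensities that the authors normalized with a tool named R-pack; the sources used here do not give its method or version. Detection calls and scanner values were not analysed here, so whether a low value exceeds background is unknown. Technical arrays carried no identical values.

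The deposited intensities were turned into log2 values and averaged over the 2 arrays of each sample. Of 12488 probe sets, 66 controls were left out and 12422 tested: 10833 had 1 gene symbol, 396 several and 1193 none, and 10817 were named through their gene identifier. Only probe sets with 1 symbol are named. Promoters and symbols came from RefSeq (GRCm38.p6), and 40 of 57 called genes had a promoter entry. The 10 LMN and MMN samples entered a linear model of pool and animal (lmFit and eBayes of limma 3.58.1, R 4.3.3), and p-values were adjusted over all 12422 probe sets by the Benjamini-Hochberg method; a call is an adjusted p under 0.05. The labels give the animal as the Pair number, and deviations of same-numbered LMN and MMN samples correlated at 0.621, 0.732, 0.747, 0.567 and 0.432 across probe sets. Data of 12422 probe sets were simulated in 5 runs, with 100 probe sets changed at each size. The same test recovered 75.4% of log2 differences of 0.5 and 96% of differences of 1, and 4.57% of its calls were false. The simulated noise was independent between probe sets, whereas measured genes of a sample can shift together, as in animal 2. These rates may therefore not hold for the measured data.

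Genes were named by rule: of probe sets called with 1 symbol, a difference of equal sign in all 5 animals and a level in the brighter pool that reached the median level, the 12 highest and 12 lowest differences; Igfbp3, Itih5, Bmp6 and Syt4; a set of motoneuron and column genes; and up to 4 members with the smallest p of each of 36 lists. Only 10 genes met the rule on the higher side. Any other gene given with values was chosen after its values were seen. A gene stands in a list by its brightest probe set. The genes, lists and tests were chosen with earlier results of these data known. In all, 18 alternatives were tried: the model of the animal, the samples and arrays in the fit, scaling, filters, the variance model, the threshold and each animal left out.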

Additional observations from a re-analysis of the deposited data

Results flagged for a closer look

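In 76 groups of 5 samples (38 genes in LMN and in MMN), the highest or lowest sample was compared with the others by Dixon's ratio, and 7 samples stood apart; chance gives about 1 in 20 groups. Of the 7, 4 were the LMN sample of animal 2: Acta2 at 9.13, where the other 4 LMN samples lay between 6.14 and 6.60, Tagln at 7.25, against 6.46 to 6.68, Col3a1 at 8.16, against 6.66 to 7.06, and Uck2, the lowest, at 7.48, against 7.82 to 7.94. In MMN, animal 2 was far above the others for Igfbp3, at 10.02 against 8.11 to 8.56. Isl1 stood at 5.96 in the LMN sample of animal 1, against 5.46 to 5.56, and Mecom at 6.13 in the MMN sample of animal 3, the lowest, against 6.30 to 6.36.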

How the results depend on the processing

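The model gave 67 calls, 16 higher and 51 lower in LMN. Without the animal as a block the paired design was lost and limma called 0 (0 higher, 0 lower; 453 at an unadjusted p under 0.05). With the animal as a random block it called 27, of which 16 lower. With all 15 samples it called 7, of which 3 higher and 4 lower. Technical set 1 alone gave 25, with 0 higher and 25 lower, and set 2 alone gave 84, with 10 higher and 74 lower. All 20 arrays with the sample as a random block gave 617, with 171 higher and 446 lower. That fit enters technical arrays of the same 5 animals, so its larger count does not rest on more animals. Leaving out dim probe sets gave 34, with 9 higher and 25 lower. A floor of 32 gave 0 calls, 0 higher and 0 lower (1689 at an unadjusted p under 0.05). A threshold of 0.10 gave 230, with 66 higher and 164 lower. Leaving out each animal in turn gave 1 to 56 calls, 0 to 5 higher and 1 to 51 lower. All 67 kept their sign in every alternative in which they were fitted. In the fits without an animal or with another model of the animal this was fixed in advance, because the sign was equal in 5 of 5 animals. Lower calls were 76.1% of the total, 79.7% after quantile normalization, 59.3% with the random block and 57.1% with all 15 samples. Values near 0 turned: Isl1 ran from -0.0097 to 0.0523 and Prph from -0.2187 to 0.2802 without 1 animal, and Mecom ran from -0.0250 to 0.0814 without 1 animal and stood at -0.0356 in technical set 2. The cause of these moves was not tested. The number of arrays limits the precision. Of the 51 lower calls, 15 had an MMN mean below the median level, and of the 16 higher calls, 5 had an LMN mean below it.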

Other observations

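The following called genes lie outside the naming rule and were picked out after their values were seen. Cp, the copper-carrying ferroxidase ceruloplasmin, differed by -0.84 ± 0.11, and Apod, a lipocalin of fibroblasts and glia, by -0.74 ± 0.10 (adjusted p = 0.0273 in limma for both). Wls, the carrier that Wnt proteins need for secretion, differed by -0.76 ± 0.08 (adjusted p = 0.0214). Gjb2, a connexin of the leptomeninges, had means of 7.16 in LMN and 7.92 in MMN. The chemokine Cxcl12 differed by -0.61 ± 0.06 (adjusted p = 0.0214) in its dimmest probe set, while its others differed by -0.05 and -0.18 and were not called. Gas1, a membrane protein that binds hedgehog ligands, had LMN values of 7.81, 8.63, 8.19, 8.21 and 8.42 and MMN values of 8.74, 9.49, 8.90, 8.65 and 8.92, so that every MMN value lay above every LMN value, by a narrow margin between animals 2 and 4. Myl9, a myosin light chain of smooth muscle, differed by -0.70 ± 0.10 (adjusted p = 0.0407). Nkx2-2, a factor of the ventral cord and of oligodendrocyte precursors, differed by -0.42 ± 0.06 (adjusted p = 0.0423). Among those higher in LMN, Tax1bp1, an autophagy receptor, differed by 0.64 ± 0.07 (adjusted p = 0.0217) in its dimmest probe set, while its brighter ones differed by 0.06 and 0.04 and were not called.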
